A study of Homo sapiens with 12 samples.

Results

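Kelly is a human neuroblastoma line of the adrenergic type that carries an amplified MYCN gene. The 6 RNA libraries of cells that received no doxycycline, of 12 in the series, were taken as its baseline. Each library came from a Kelly derivative with a short hairpin RNA (shRNA) transcribed on addition of doxycycline. The untreated libraries comprised 2 of the shRCOR1 line (shRNA against RCOR1), 2 of the shRCOR2 line (shRNA against RCOR2) and 2 of the shCTRL line (a hairpin without a target). All 3 lines therefore carried an inducible hairpin, and parental Kelly cells were not analysed here. The other 6 libraries, 2 per line, came from cells given 2 µg/mL doxycycline. The sample labels give 72 h for all 12 libraries, untreated ones included, whereas the treatment protocol names 24 and 48 h. Cells were grown in RPMI with fetal bovine serum. Separate cultures for the 2 replicates of a line are not stated, so p-values measure the spread between these libraries, which may be technical. Whether a line was a clone or a pool of cells is not stated either.

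Neuroblastoma arises from the sympathoadrenal branch of the neural crest, the embryonic source of sympathetic neurons and adrenal chromaffin cells. In its adrenergic state a group of transcription factors that includes HAND2, GATA3 and ISL1 is expressed together with enzymes that make noradrenaline and with proteins of dense-core secretory granules. A second, mesenchymal state resembles migratory neural crest cells and is marked by factors such as PRRX1 and by AP-1 proteins. RCOR1 and RCOR2 encode CoREST scaffold proteins, which join the histone demethylase KDM1A to the deacetylases HDAC1 and HDAC2.

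Levels are given in TPM, a share of each library's transcripts that the authors scaled by gene length and to 1 fixed total. The number of reads behind a library was not given, and the ratio of read coverage to FPKM, which tracks depth, differed 2.14-fold between the shallowest and the deepest of the 6. This ratio was lower in replicate 2 of every line, at 14.6 and 6.94 (shRCOR1), 12.45 and 10.3 (shRCOR2) and 8.47 and 6.81 (shCTRL). Genes at 1 TPM or more were more numerous there, at 14798 and 15467, 14908 and 15503, and 14758 and 15886 in the same lines. The files listed 60660 gene identifiers, of which 14140 (23.3%) had at least 1 TPM in all 6 libraries and 25721 (42.4%) were listed at 0 in all 6. Among nuclear protein-coding genes, 11841 of 19878 (59.6%) reached 1 TPM in all 6 libraries. The same held for 1057 of 14832 long non-coding RNA genes and 911 of 15179 pseudogenes. Mitochondrially encoded transcripts took 14.9 to 21.4% of TPM and were higher in replicate 2 than in replicate 1 of every line. On log2(TPM + 1), libraries of different lines with the same replicate number correlated at 0.989 to 0.994 across genes, and the 2 libraries of 1 line at 0.977 to 0.988. The largest principal component, with 62.2% of the variance, placed all replicate 1 libraries on one side and all replicate 2 libraries on the other, with shCTRL replicate 2 farthest out.

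Promoter letters differed with expression level, and 3 promoters show the features that were counted. RefSeq sequences (GRCh38.p14) of the 250 bases before the start were matched for 11181 coding genes. Capitals mark the letters TGACGTCA (the full cyclic-AMP response element, the same on both strands) in CHGA, and every CG in ISL1, an expressed adrenergic factor, and in ALB, the liver gene for albumin. The segments were chr14:92922900-92923149 (plus strand), chr5:51383198-51383447 (plus strand) and chr4:73404037-73404286 (plus strand).
CHGA: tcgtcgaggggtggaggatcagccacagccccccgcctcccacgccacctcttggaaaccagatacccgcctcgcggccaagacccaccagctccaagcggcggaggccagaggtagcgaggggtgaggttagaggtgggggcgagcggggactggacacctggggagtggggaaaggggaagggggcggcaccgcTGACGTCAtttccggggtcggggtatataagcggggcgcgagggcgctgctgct
ISL1: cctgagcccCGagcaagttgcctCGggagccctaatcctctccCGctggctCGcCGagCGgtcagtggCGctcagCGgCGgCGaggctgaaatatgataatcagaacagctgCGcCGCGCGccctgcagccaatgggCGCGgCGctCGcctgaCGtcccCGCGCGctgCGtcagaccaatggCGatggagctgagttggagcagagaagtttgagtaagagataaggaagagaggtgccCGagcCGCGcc
ALB: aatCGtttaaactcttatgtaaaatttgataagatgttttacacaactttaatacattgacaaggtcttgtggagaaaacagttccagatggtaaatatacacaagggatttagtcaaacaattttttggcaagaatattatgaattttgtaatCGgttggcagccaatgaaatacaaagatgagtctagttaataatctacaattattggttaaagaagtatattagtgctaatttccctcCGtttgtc
CHGA averaged 2895 TPM, ISL1 88.3 TPM and ALB 0.037 TPM over the 6 libraries. The ISL1 stretch held 27 CG pairs and the ALB stretch 3. Over all matched genes the median number of CG pairs was 22 for the 782 genes at 100 TPM or more. It was also 22 for the 4223 genes between 10 and 100 TPM, 21 for the 1916 genes between 1 and 10 TPM, 9 for the 2313 genes under 1 TPM and 3 for the 1947 genes listed at 0 in every library. The ratio of observed to expected CG had medians of 0.894 and 0.230 in the highest and the lowest of these classes. TGACGTCA lay in 3.96% of promoters of the highest class and in 3.95% of those between 10 and 100 TPM. The shares were 2.30% between 1 and 10 TPM, 1.56% under 1 TPM, 0.770% for genes listed at 0 and 2.62% for all. Among 12 matched genes of the secretory list 4 held it: CHGA, CARTPT, SST and VGF. In CHGA it covered bases 54 to 47 before the start. The TATA box letters TATAAA were searched on the gene's own strand between 45 and 16 bases before the start. They lay in 3.32% of promoters of the highest class and 12.2% of those of genes listed at 0, against 4.55% of all. The classes between were not in even steps, with 1.04% between 10 and 100 TPM, 3.24% between 1 and 10 TPM and 6.01% under 1 TPM.

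Many of the most abundant transcripts shared a start of C followed by pyrimidines, the 5′ terminal tract found in messages of the translation machinery. The first 20 transcribed bases of 5 of the 30 most abundant genes are shown, with the unbroken pyrimidine run in capitals where the transcript began with C. They lie at chr6:73521013-73521032 (minus strand), chr9:133348218-133348237 (plus), chr12:120201092-120201111 (minus), chr4:151099628-151099647 (plus) and chr12:6535264-6535283 (plus).
EEF1A1: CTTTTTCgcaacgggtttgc
RPL7A: CTTTCTCTCTCCTCCCgccg
RPLP0: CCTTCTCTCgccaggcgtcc
RPS3A: CCCTTTTggctctctgacca
GAPDH: gtccggatgctgcgcctgcg
A C followed by at least 4 pyrimidines opened 41 of 56 matched ribosomal protein genes (73.2%) and 13 of 20 matched genes among the 30 most abundant (65%), against 4.66% of all matched genes. GAPDH, a glycolytic enzyme, had no such tract. A match describes letters only.

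Translation genes led the nuclear transcripts. EEF1A1, which brings aminoacyl-tRNA to the ribosome, ranked first, at 10192 and 10278 TPM in the shRCOR1 line, 9907 and 10151 in the shRCOR2 line and 9824 and 9452 in the shCTRL line. GAPDH followed with a mean of 7314 ± 313 TPM (SD, n = 6 libraries) and RPS2 with 5343 ± 435. Ribosomal protein genes filled 19 of the 30 highest places, and all 84 together made up 12.8 to 15.8% of TPM. Their median was 1729 TPM. The 10 most abundant nuclear genes held 4.72 to 5.36% of TPM and the 100 most abundant 20.3 to 24.0%.

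**Figure D1:**
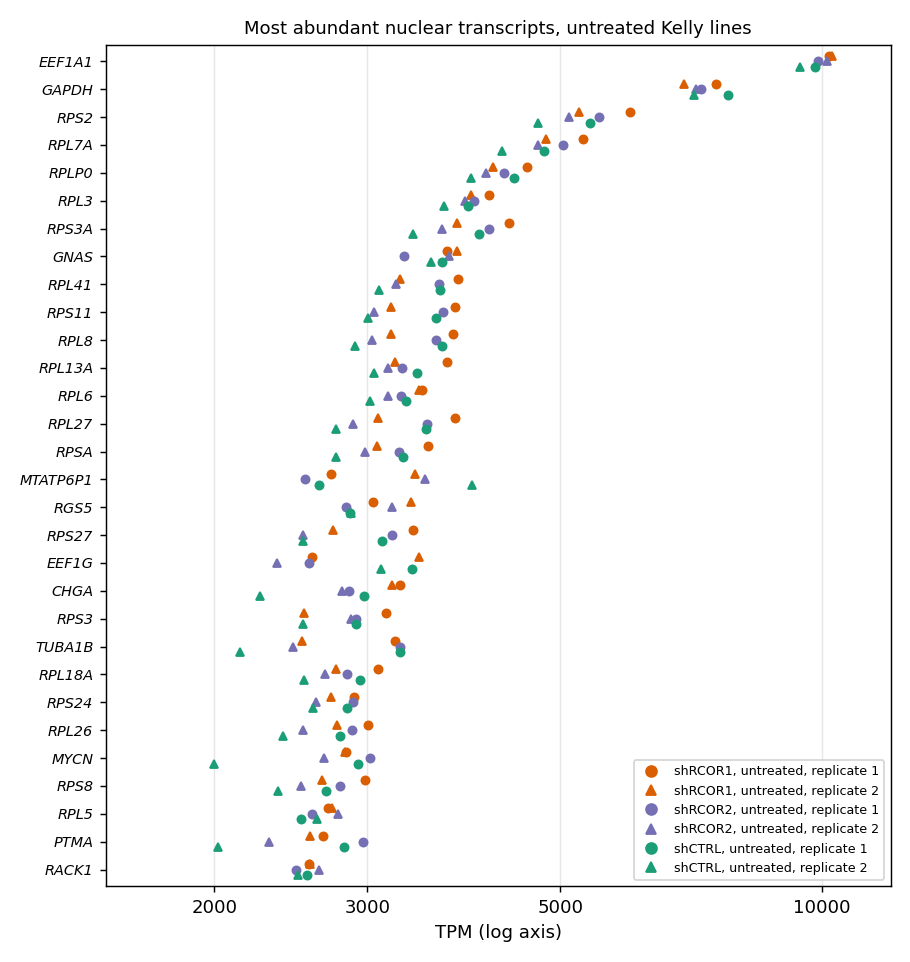
TPM on a log axis of the 30 nuclear genes with the highest mean over the 6 untreated libraries, with circles for replicate 1 and triangles for replicate 2 of each line. EEF1A1 lies between 9452 and 10278 TPM, and MYCN is lowest in shCTRL replicate 2 at 2000 TPM.

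Several genes of these 30 were not housekeeping genes. GNAS, the stimulatory G-protein alpha subunit, averaged 3624 ± 176 TPM, and RGS5, a regulator of G-protein signalling, averaged 3031 ± 216 TPM. CHGA (chromogranin A, a core protein of catecholamine granules; chr14:92923150-92935285) ranked at place 20. It had 3272 and 3202 TPM in the shRCOR1 line, 2854 and 2807 in the shRCOR2 line and 2975 and 2259 in the shCTRL line. MYCN (chr2:15940550-15947007), the amplified oncogene, ranked at place 26, with 2835 and 2826 TPM in the shRCOR1 line, 3020 and 2677 in the shRCOR2 line and 2923 and 2000 in the shCTRL line. In both genes shCTRL replicate 2 was the lowest library and the other 5 lay close together. MTATP6P1, a nuclear copy of a mitochondrial gene, averaged 3125 TPM. Its reads may be shared with MT-ATP6, which averaged 19754 TPM. The same uncertainty holds for EEF1A1, the ribosomal protein genes and other families with near-identical copies. Among mitochondrial transcripts MT-ATP8 (25013 TPM), MT-RNR2 (24194 TPM), MT-CO1 (19875 TPM) and MT-CO2 (14607 TPM) were the other members of the top 5.

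Adrenergic transcription factors were expressed almost without exception. Of 30 factors on the list, 29 reached 1 TPM in all 6 libraries and 26 averaged at least 10 TPM, with a list median of 42.4 TPM. HAND2, a basic helix-loop-helix factor of sympathetic development, was the highest at 805 ± 64.0 TPM. GATA2 averaged 440.5 TPM, INSM2 345, HAND1 284, PHOX2A 260 and GATA3 187 TPM. GATA3 had 168 and 179 TPM in the shRCOR1 line, 208 and 175 in the shRCOR2 line and 203 and 189 in the shCTRL line, and GATA2 had 411 and 461, 524 and 412, and 480 and 355 TPM in the same lines. ISL1, a LIM-homeobox factor, averaged 88.3 ± 9.19 TPM. Within the list most members varied little between libraries, with the highest library 1.25 times the lowest for HAND2 and 1.11 times for EBF1. Lower members were SOX11 at 31.3 TPM, CASZ1 at 12.8 TPM, INSM1 at 7.50 TPM and NEUROD1, a bHLH factor of neuronal differentiation, at 6.54 TPM. TFAP2A was the exception, at 0.016 TPM on average, whereas its paralogue TFAP2B averaged 141 ± 17.3 TPM.

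**Figure D2:**
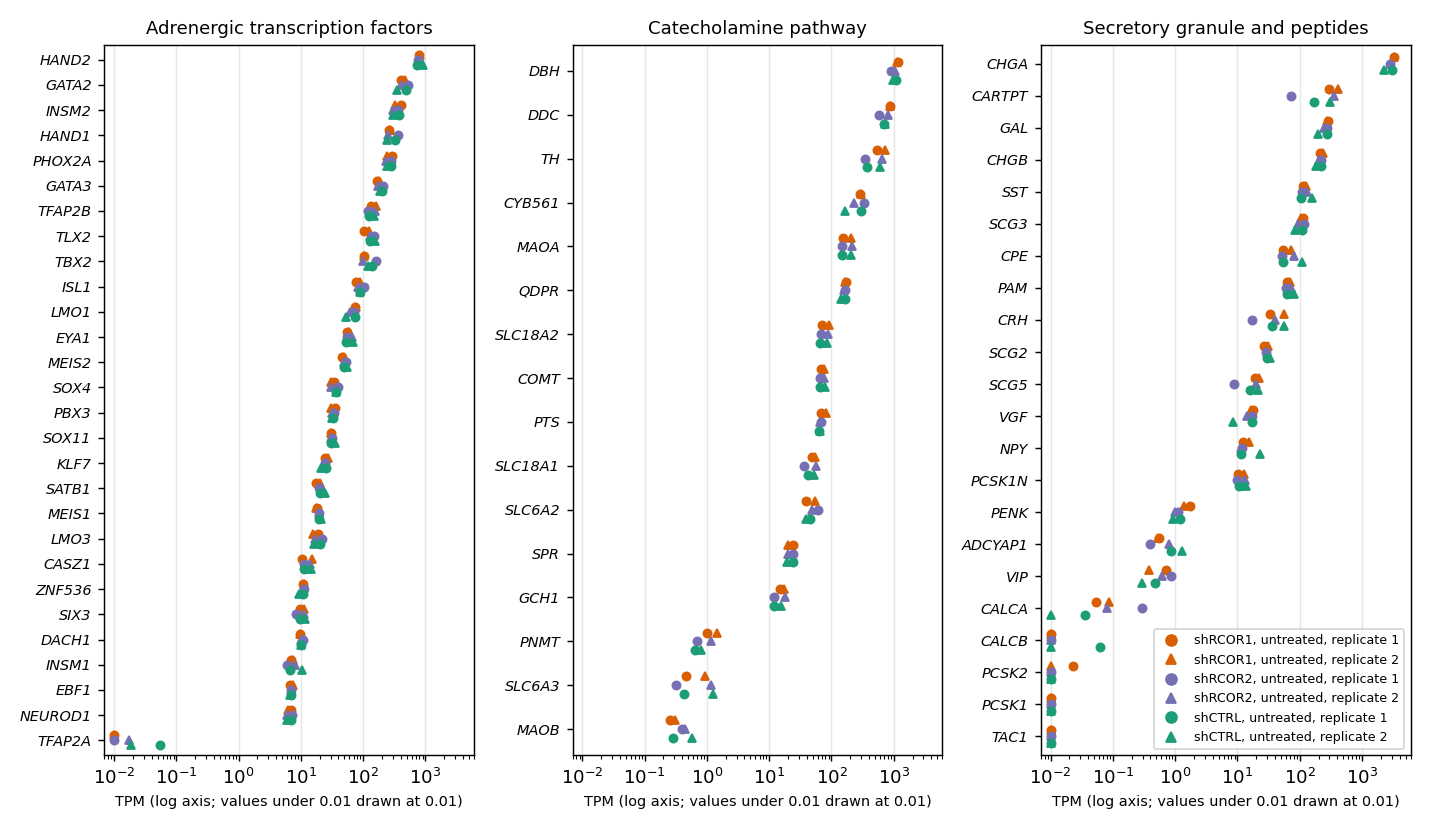
TPM on a log axis in each of the 6 untreated libraries for 28 of 30 adrenergic transcription factors, 16 genes of catecholamine synthesis, storage and turnover, and 22 genes of secretory granules and peptides; circles are replicate 1 and triangles replicate 2. DBH lies between 904 and 1158 TPM and PNMT between 0.644 and 1.43 TPM, so genes of 1 pathway differ far more than libraries do.

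The pathway to noradrenaline was present and its last step to adrenaline was low. TH, the rate-limiting tyrosine hydroxylase, had 532 and 735 TPM in the shRCOR1 line, 342 and 654 in the shRCOR2 line and 372 and 612 in the shCTRL line. It was higher in replicate 2 of every line. Between libraries of the same replicate number it was higher in shRCOR1 than in shCTRL both times, whereas shRCOR2 was below shCTRL in replicate 1 and above it in replicate 2. DDC, which makes dopamine from L-DOPA, averaged 752 ± 109 TPM. DBH, which makes noradrenaline from dopamine, had 1158 and 1119 TPM in the shRCOR1 line, 904 and 1042 in the shRCOR2 line and 1074 and 968 in the shCTRL line. The cofactor enzyme genes QDPR, PTS, SPR and GCH1 averaged 163, 68.3, 21.9 and 14.9 TPM. PNMT, which methylates noradrenaline to adrenaline, averaged 0.959 ± 0.304 TPM. Of the vesicular monoamine transporters, SLC18A2 averaged 77.9 TPM and SLC18A1 48.2 TPM. The noradrenaline transporter SLC6A2 averaged 48.1 ± 9.01 TPM and the dopamine transporter SLC6A3 0.755 TPM. Of the 2 monoamine oxidases, MAOA averaged 178 ± 31.1 TPM and MAOB 0.376 ± 0.118 TPM. In all, 13 of 16 genes reached 1 TPM in every library.

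Granule genes were more uneven, with 14 of 22 at 1 TPM or more in all 6 libraries. After CHGA, the peptide genes GAL (galanin) and CARTPT averaged 257 and 268 TPM, and the granule protein gene CHGB averaged 214 TPM. CARTPT spread widely, with 298 and 415 TPM in the shRCOR1 line, 72.0 and 352 in the shRCOR2 line and 167 and 306 in the shCTRL line. SST (somatostatin) averaged 123 TPM, CRH (corticotropin-releasing hormone) 39.6 TPM with a range of 16.9 to 56.1 TPM, and NPY (neuropeptide Y) 14.1 TPM. The prohormone convertase genes stood at the other end, with PCSK1 listed at 0 in all 6 libraries and PCSK2 averaging 0.0054 TPM. By contrast, CPE and PAM, whose products trim and amidate peptides, averaged 70.8 and 67.8 TPM. TAC1 (tachykinin precursor) was listed at 0 and VIP averaged 0.554 TPM.

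All 33 genes of the neuronal list reached 1 TPM in every library, and all 33 averaged at least 10 TPM. TUBA1A, a neuronal alpha-tubulin, was the highest at 1368 ± 37.9 TPM. UCHL1, a neuronal deubiquitinase, averaged 1007 TPM, TUBB3 627 TPM and STMN2, a microtubule regulator of growing axons, 613 ± 187 TPM. PRPH, an intermediate filament of peripheral neurons, averaged 368 TPM, against 44.0 TPM for NEFL. STMN2 had 479 and 712 TPM in the shRCOR1 line, 443 and 789 in the shRCOR2 line and 422 and 836 in the shCTRL line, higher in replicate 2 throughout, whereas TUBB3 stayed between 600.3 and 656 TPM. RNA-binding proteins of the ELAVL family were graded, with ELAVL3 at 84.4 TPM, ELAVL4 at 37.6 TPM and ELAVL2 at 30.6 TPM. DCX (doublecortin) was the lowest at 13.1 TPM.

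Genes next to MYCN and genes of its protein network were examined next. DDX1, about 306 kb away and often co-amplified with MYCN, averaged 274 ± 24.9 TPM, and NBAS, 379 kb away on the same side, 32.1 ± 1.61 TPM. MYCNOS, transcribed from the opposite strand and overlapping the 5′ end of MYCN, averaged 106 ± 26.7 TPM. The sources used here give no strand setting for the authors' quantification, so reads of MYCN and MYCNOS may not be fully separated. MAX, the obligate partner of MYCN, averaged 51.2 ± 2.24 TPM. Of the other MYC family members, MYCL averaged 1.72 TPM and MYC 0.071 TPM. Known MYC targets were abundant, with NPM1 at 2078 TPM, NCL at 1098 TPM and ODC1 at 557 TPM. In all, 21 of 24 genes of the list reached 1 TPM in every library.

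Cell-cycle genes were expressed at a median of 124 TPM, with 31 of 32 at 1 TPM or more in all 6 libraries. The replication clamp PCNA averaged 361 TPM, TOP2A 236 TPM and MKI67 83.7 TPM. Among the D-type cyclins CCND1 averaged 118 ± 12.7 TPM and CCND3 21.3 TPM, while CCND2 averaged 0.074 TPM. The summed level of the list ranged from 3600 to 5321 TPM between libraries and was higher in replicate 1 than in replicate 2 of every line. Of the death and tumour suppressor genes, 22 of 26 reached 1 TPM throughout. BAX, which opens mitochondria in cell death, averaged 159 TPM. Low members were CASP8, an initiator caspase often silenced in neuroblastoma, at 0.219 ± 0.093 TPM, CASP10 at 0.048, CDKN2B at 0.079 and CHD5, a chromodomain gene of 1p36, at 0.397 TPM. TERT, the telomerase catalytic subunit, averaged 7.68 ± 1.10 TPM.

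Receptor genes were low to moderate, with 14 of 21 at 1 TPM or more in all 6 libraries and none averaging 100 TPM. RET, the receptor for glial-derived neurotrophic ligands, led with a mean of 46.6 TPM and varied the most. It had 45 and 41.1 TPM in the shRCOR1 line, 82.7 and 31.4 in the shRCOR2 line and 61.1 and 18.3 in the shCTRL line. ALK, a neuroblastoma oncogene, averaged 31.0 ± 3.92 TPM, and PDGFRB 31.6 TPM. Of the neurotrophin receptors NGFR averaged 5.16 TPM, NTRK3 0.541 TPM and NTRK2 0.162 TPM. Coreceptors of RET followed the same scale, with GFRA2 at 22.5 TPM, GFRA1 at 11.2 TPM and GFRA3 at 7.84 TPM. Of 15 genes of antibody and cell therapy targets 12 reached 1 TPM throughout. CD24 averaged 366 TPM, NCAM1 120 TPM, CD276 80.3 TPM and DLL3 49.0 TPM. B4GALNT1, which makes the gangliosides GM2 and GD2, averaged 28.9 TPM, whereas ST8SIA1, the GD3 synthase, averaged 1.27 ± 0.202 TPM.

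Of 20 genes of the CoREST complex and its recruiting factors, 17 reached 1 TPM in every library. KDM1A was the highest at 318 ± 4.95 TPM, followed by HDAC2 at 141 TPM and HDAC1 at 117 TPM. The CoREST scaffolds differed in level. RCOR2 averaged 52.0 ± 2.40 TPM, RCOR3 41.2 ± 4.83 TPM and RCOR1 9.36 ± 0.797 TPM, and RCOR1 was below both others in every library. KDM1A varied little, with 311 and 320 TPM in the shRCOR1 line, 313 and 323 in the shRCOR2 line and 317 and 322 in the shCTRL line. RCOR3 had 36.7 and 44.4, 41.4 and 43.6, and 34.3 and 46.9 TPM in the same lines. REST, the repressor of neuronal genes in other cells, averaged 2.2 ± 1.24 TPM and was highest in shCTRL replicate 2, at 4.44 TPM. GFI1 and GFI1B, which recruit the complex in blood cells, averaged 0.142 and 0.077 TPM.

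Genes of early development and imprinting showed split pairs, and 10 of 19 found reached 1 TPM in all 6 libraries. IGF2, a growth factor transcribed from the paternal copy, averaged 1095 ± 260 TPM, while its neighbour H19, transcribed from the maternal copy, averaged 0.589 ± 0.193 TPM. DLK1, paternally expressed, averaged 994 ± 98.7 TPM, and MEG3, its maternally expressed neighbour, 1.89 ± 0.762 TPM. LIN28B, which blocks let-7 maturation, averaged 88.5 TPM. Its paralogue LIN28A had 0.894 and 3.55 TPM in the shRCOR1 line, 0.685 and 5.79 in the shRCOR2 line and 1.49 and 9.32 in the shCTRL line, higher in replicate 2 of each. IGF2BP1 and IGF2BP3 averaged 143 and 83.6 TPM, whereas IGF2BP2 averaged 0.00088 TPM. HMGA1 averaged 554 TPM and HMGA2 was listed at 0 in all 6 libraries. Of the pluripotency factors SOX2 averaged 6.98 TPM, and NANOG was listed at 0.

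Most genes of antigen presentation were low. Only 6 of 23 reached 1 TPM in all 6 libraries. B2M, the light chain of class I molecules, averaged 133 ± 8.92 TPM. HLA-C averaged 2.31 TPM and HLA-B 0.054 TPM, although reads of these similar genes cannot be split with certainty. TAP1, PSMB8 and PSMB9, which feed peptides to class I molecules, were listed at 0 in every library, as were HLA-F and MICA. Several of these genes share a stretch of chromosome 6 in which widely used genes were also low. BAG6 averaged 11.2 TPM there, CSNK2B 4.79 TPM and DHX16 2.55 TPM, and RPS18 averaged 494 TPM with a range of 160 to 872 TPM. Between HLA-F and TAPBP (chr6:29722775-33314387) 38.3% of 149 coding genes reached 1 TPM in all 6 libraries, with a median of 4.85 TPM among those. On the rest of the chromosome it was 57.0% of 891 genes with a median of 16.7 TPM. The part of this in the low HLA values was not tested. NLRC5, a class I transactivator encoded elsewhere, averaged 1.13 TPM, and CD274 averaged 0.042 TPM.

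Markers of other cell types were mostly near 0. Of 144 genes on 11 lists for other lineages, 104 stayed below 1 TPM in all 6 libraries and 8 averaged at least 10 TPM. No leukocyte gene of 18 and no hepatocyte gene of 14 reached 1 TPM in all 6 libraries, and PTPRC (CD45) averaged 0.014 TPM. Among epithelial genes CDH1 was listed at 0 and KRT19 averaged 7.18 TPM. SOX10, the Schwann and melanocyte factor, averaged 0.0035 TPM. Of the other lists, 6 of 16 Schwann and glial genes, 2 of 8 melanocyte, 2 of 10 endothelial, 2 of 11 muscle, 1 of 11 erythroid, 1 of 13 epithelial and 4 of 21 genes of other neuron types reached 1 TPM throughout. The highest Schwann and glial gene was PMP22, a myelin protein also made elsewhere, at 26.9 ± 1.40 TPM. The embryonic globin gene HBE1 averaged 2.92 TPM and cardiac troponin TNNT2 6.09 TPM. In the adrenal cortex list 1 of 11 genes reached 1 TPM throughout, with NR5A1 at 0.074 TPM and CYP11B1 listed at 0.

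**Figure D3:**
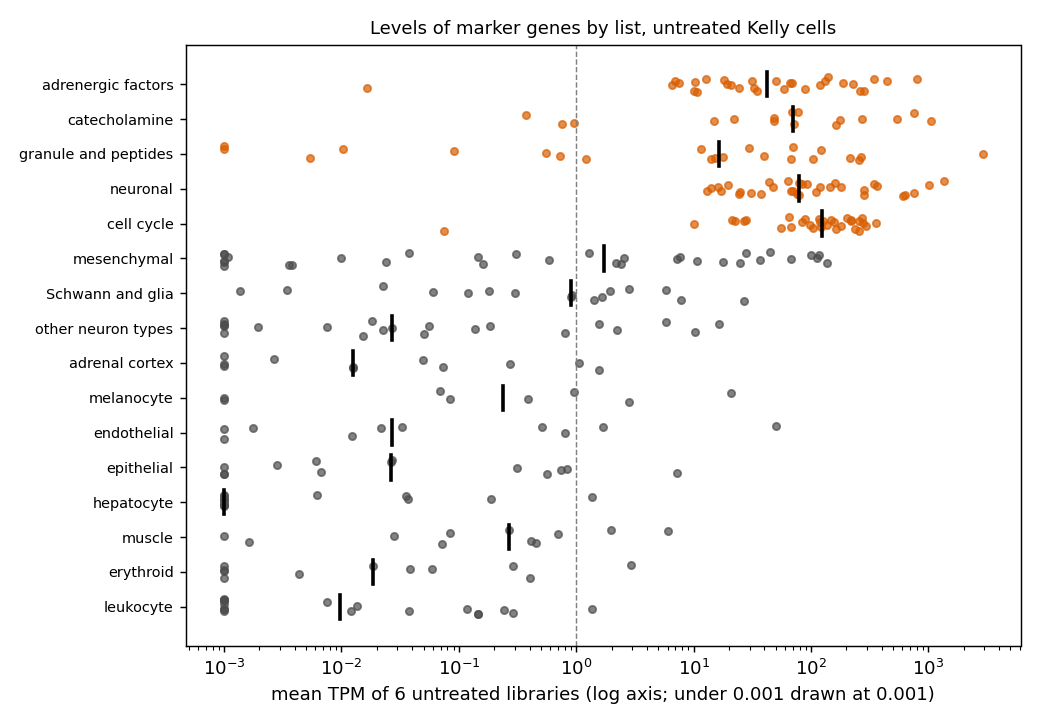
Each dot is the mean TPM of 1 gene over the 6 untreated libraries on a log axis, by list; orange lists describe adrenergic identity and growth, grey lists other cell types, black bars are list medians and the dashed line is 1 TPM. The 5 orange lists have medians from 16.5 to 124 TPM, and the mesenchymal list is the only grey one shown with a median above 1 TPM, at 1.73 TPM. The list of blood-lineage factors is not drawn and had a median of 2.45 TPM.

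The mesenchymal list was split. Of 32 genes, 14 reached 1 TPM in all 6 libraries and 15 stayed below it in all 6. TWIST1, a factor of neural crest migration, averaged 137 ± 19.3 TPM, VIM (vimentin) 118 ± 50.9 TPM and SPARC 100 ± 11.8 TPM. RUNX1 averaged 0.0099 TPM, FOSL1 0.0038 TPM and AXL 0.0011 TPM, and IL6, ANXA1, S100A6, TWIST2 and RUNX2 were listed at 0 in every library. The summed level of the list ran from 573 to 919 TPM and was highest in shCTRL replicate 2.

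Genes at 10 TPM or more from lists of other lineages included EGFL7, an endothelial gene, at 50.7 ± 8.92 TPM. Of 11 factors on the blood-lineage list 7 reached 1 TPM throughout. The B-cell factor PAX5 averaged 12.1 TPM and RUNX3 10.5 TPM. The list also holds EBF3, at 20.1 TPM, whose paralogue EBF1 is on the adrenergic list, so its members are not markers of blood cells alone. SLC18A3 and CHAT, which load and make acetylcholine, averaged 16.4 and 5.83 TPM. Cancer-testis genes were expressed in part, with 6 of 16 at 1 TPM or more throughout. PRAME averaged 257 ± 34.7 TPM, MAGEA10 91.9 TPM and MAGEA1 85.1 TPM, while MAGEA4 averaged 0.049 TPM and DAZL and DDX4 were listed at 0. MAGEA and GAGE genes have near-identical copies, so their split is uncertain.

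Replicates differed in a set of genes that recurred across lines. Of 11363 genes averaging at least 5 TPM, 33 were at least 2-fold higher and 11 at least 2-fold lower in replicate 2 than in replicate 1 of all 3 lines, on log2(TPM + 1). This selection is a description and carries no test. Replicate 2 also had the lower ratio of coverage to FPKM in every line, and the part of depth in these differences was not tested. COL1A1, a fibrillar collagen, had 6.43 and 21.1 TPM in the shRCOR1 line, 6.78 and 36.2 in the shRCOR2 line and 10.7 and 87.3 in the shCTRL line. PMEL, a melanosome protein, ran in the same direction, with 6.23 and 17.4, 3.57 and 33.9, and 5.79 and 59.2 TPM in the shRCOR1, shRCOR2 and shCTRL lines. COL3A1, COL5A1, LAMA5 and APOE were among the others that were higher in replicate 2. The immediate early genes EGR1, FOS and JUN, whose transcripts appear within minutes of a stimulus, were lower in replicate 2. FOS had 202 and 3.85 TPM in the shRCOR1 line, 60.4 and 6.10 in the shRCOR2 line and 209 and 1.38 in the shCTRL line. RN7SL2, the RNA of the signal recognition particle, had 2898 and 338, 2251 and 669, and 2751 and 794 TPM in the same order of lines. PRRX1, a homeobox factor of the mesenchymal state, averaged 2.19 TPM and was not in the selection. It had 0.248 and 0.617 TPM in the shRCOR1 line, 0.278 and 0.714 in the shRCOR2 line and 0.562 and 10.7 in the shCTRL line. Its value in shCTRL replicate 2 stood apart.

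In the induced libraries, which this selection did not use, all 33 genes chosen as higher were again higher in replicate 2 of all 3 lines, as were 40.1% of the 11363 genes. Of the 33, 5 were again at least 2-fold higher in all 3 lines, against 0.0704% of the 11363. Of the 11 genes chosen as lower, 7 were again lower in all 3 induced lines, as were 24.9% of the 11363 genes, and 4 were at least 2-fold lower, against 0.0440% of the 11363. EGR1 was not among them, with 40.0 and 42.0 TPM in induced shRCOR1, 19.5 and 11.6 in induced shRCOR2 and 58.9 and 1.21 in induced shCTRL. COL1A1 had 22.7 and 52.6, 7.94 and 11.9, and 8.13 and 81.2 TPM in the induced shRCOR1, shRCOR2 and shCTRL lines.

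**Figure D4:**
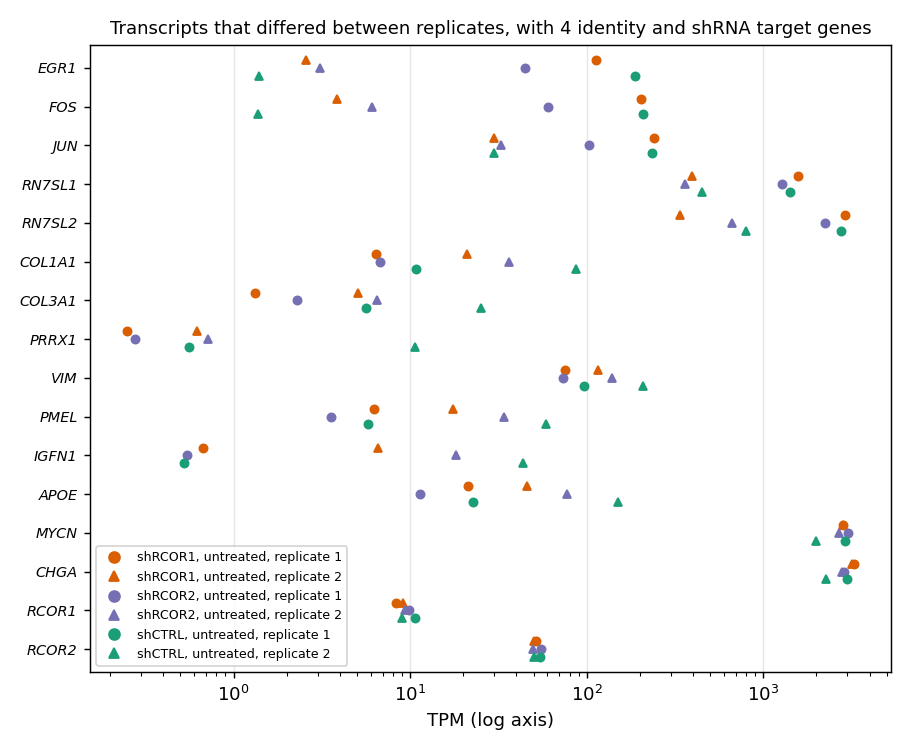
TPM on a log axis in each untreated library for 12 genes and for MYCN, CHGA, RCOR1 and RCOR2, with circles for replicate 1 and triangles for replicate 2. The 12 are from the selection of genes that differed between replicates, except PRRX1 and VIM, which were not in it. EGR1, FOS and JUN lie lower and COL1A1 and PMEL higher in replicate 2 of all 3 lines, and RCOR1 and RCOR2 lie within a narrow band in all 6 libraries.

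The next comparison set the shRCOR1 and shRCOR2 lines against the shCTRL line without doxycycline, before any hairpin was induced. RCOR1 (chr14:102592649-102730561) had 8.32 and 9.08 TPM in the shRCOR1 line, 9.81 and 9.32 in the shRCOR2 line and 10.7 and 8.99 in the shCTRL line. The shRCOR1 minus shCTRL difference was -0.15 ± 0.12 (log2, SE; limma adjusted p = 1), with a 95% interval from -0.44 to 0.13. It was -0.043 without shCTRL replicate 1, -0.098 without shRCOR1 replicate 1 and -0.27 without shCTRL replicate 2. RCOR2 (chr11:63911230-63917164) had 51.4 and 50.5 TPM in the shRCOR1 line, 55.4 and 49.9 in the shRCOR2 line and 54.6 and 50.2 in the shCTRL line. The shRCOR2 minus shCTRL difference was 0.0058 ± 0.11 (log2, SE; limma adjusted p = 1), with an interval from -0.25 to 0.27. For both targets the libraries of the groups overlapped. In the induced libraries the same fit gave -0.75 for RCOR1 in shRCOR1 minus shCTRL (limma adjusted p = 0.0092) and -1.2 for RCOR2 in shRCOR2 minus shCTRL (limma adjusted p = 0.00089). RCOR2 was also lower in induced shRCOR1 than in induced shCTRL, with a difference of -0.79 (limma adjusted p = 0.0052).

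No gene passed the threshold between untreated lines. Across 16842 genes tested with limma, 0 genes (0%) had an adjusted p below 0.05 in the 4 knockdown-line libraries against the 2 shCTRL libraries, and the smallest adjusted p was 1. An unadjusted p below 0.05 was reached by 134 genes (0.796%). The shRCOR1 minus shCTRL comparison also gave 0 calls (0%), with 114 genes (0.677%) at an unadjusted p below 0.05. For shRCOR2 minus shCTRL the values were 0 calls (0%) and 123 genes (0.73%), and for shRCOR2 minus shRCOR1 they were 0 calls (0%) and 91 genes (0.54%). These comparisons share libraries. Blocking on replicate number left the counts of calls at 0, and the genes at an unadjusted p below 0.05 numbered 453 (2.69%), 446 (2.65%), 339 (2.01%) and 269 (1.6%) in the same order. With doxycycline the same fit called 927 genes (5.5%) between both knockdown lines and shCTRL. It called 1515 genes (9%) between induced shRCOR1 and induced shCTRL, 2551 (15.1%) between induced shRCOR2 and induced shCTRL and 4672 (27.7%) between induced shRCOR2 and induced shRCOR1. With the replicate block those counts were 3852 (22.9%), 4484 (26.6%), 6032 (35.8%) and 8103 (48.1%) in the same order.

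**Figure D5:**
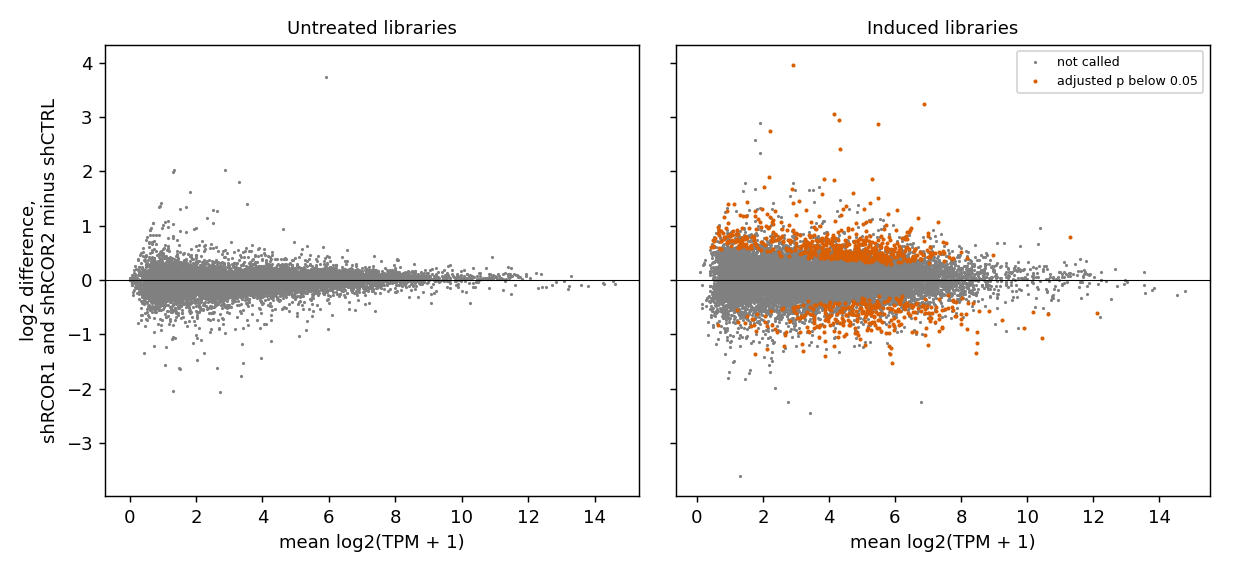
Log2 difference of the shRCOR1 and shRCOR2 lines minus shCTRL against mean log2(TPM + 1), 1 point per tested gene, for untreated (left) and induced (right) libraries; orange points passed an adjusted p of 0.05. The left panel holds no orange point, and the right panel holds 927.

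The intervals are those of the fit without the replicate block, gene by gene, and do not account for the adjustment over all genes. RMRP, in shRCOR2 minus shCTRL, had an interval from -1.28 to -0.61 and was not called. Libraries with the same replicate number deviated together, and this shared deviation is part of the spread in the unblocked fit. For both knockdown lines 0.796% of genes had an unadjusted limma p below 0.05, less than a share of 0.05. The intervals may be wider than those of the blocked fit, which are not given. For the 4 knockdown-line libraries against 2 shCTRL libraries the median absolute difference was 0.0707 on the log2 scale and the median half-width of the 95% interval 0.384. The interval lay within 1 log2 unit on both sides of 0 for 15210 genes (90.3%) and within 0.5 for 9165 (54.4%). Smaller differences were not resolved for the remaining genes, and the lack of calls does not show that the lines were alike. Fold changes on this scale understate those of genes near 1 TPM.

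The cell identity lists had median differences near 0, with members on both sides. The median difference over 29 tested adrenergic factors was -0.029, over 15 catecholamine genes 0.098, over 33 neuronal genes 0.015 and over 31 cell-cycle genes 0.067, beside -0.0071 over all tested genes. The widest single values on the identity lists were -0.54 for MAPT and 0.23 for GAP43 among neuronal genes, 0.36 for CYB561 among catecholamine genes, and -0.41 for CRH and 0.38 for VGF among granule genes. No gene of any of the 25 lists was called. Receptor genes had a median difference of -0.020 over 17 tested, CoREST genes -0.0082 over 18 and genes of the MYCN network 0.033 over 22. MYCN differed by 0.23 (95% interval -0.38 to 0.85), and without shCTRL replicate 2 the value was -0.043. CHGA differed by 0.22 (interval -0.33 to 0.77), by 0.025 without shCTRL replicate 2 and by 0.42 without shCTRL replicate 1. TH differed by 0.19, with a wide interval from -0.77 to 1.1.

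Among lists with at least 10 tested genes the mesenchymal one had the lowest median, at -0.26 over 19 tested genes, with 0 called. An unadjusted p below 0.05 was reached by 1 of the 19, where the share over all tested genes was 0.796%. With the replicate block it was reached by 7 of the 19, where the share over all tested genes was 2.69%. COL3A1 had the lowest value, -1.62, with 1.33, 5.04, 2.29 and 6.47 TPM in the 4 knockdown-line libraries and 5.64 and 25.3 TPM in the 2 shCTRL libraries. COL1A1 differed by -1.12 (interval -3.6 to 1.4) and by 0.33 without shCTRL replicate 2. The summed level of the list was 756 and 573 TPM in the shRCOR1 line, 612 and 658 in the shRCOR2 line and 816 and 919 in the shCTRL line. JUN, which is on the list, made up 29.7 to 241 TPM of these sums and was lower in replicate 2 of every line. The Schwann, melanocyte, endothelial, epithelial, hepatocyte, leukocyte and adrenal cortex lists also had their highest sum in shCTRL replicate 2, at 65.7, 63.8, 62.8, 13.1, 2.30, 4.52 and 3.95 TPM. The muscle and erythroid lists had theirs in shRCOR1 replicate 2, at 14.6 and 4.60 TPM, the blood-lineage list in shRCOR2 replicate 2, at 59.3 TPM, and the other neuron types in shRCOR2 replicate 1, at 41.7 TPM. The Schwann, melanocyte, epithelial, hepatocyte, leukocyte, adrenal cortex, muscle and erythroid sums were higher in replicate 2 than in replicate 1 of every line. The other neuron types were lower in replicate 2 of every line, and the endothelial and blood-lineage lists were mixed. PMEL alone made up 59.2 TPM of the melanocyte sum in shCTRL replicate 2. In shCTRL replicate 1 the melanocyte sum was 9.65 TPM and the endothelial sum 46.6 TPM, against 10.2 and 60.0 TPM in shRCOR1 replicate 1. The part of other cell types in these differences was not tested, nor was that of the lower ratio of coverage to FPKM in replicate 2.

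The 5 genes in each direction with the smallest p in each comparison gave 22 distinct genes, of several RNA classes, and none was called. RMRP, the RNA of the mitochondrial RNA-processing ribonuclease, had 9.57 and 9.73 TPM in the shRCOR2 line and 17.2 and 22 in the shCTRL line, with 16.5 and 15.5 in the shRCOR1 line. Its shRCOR2 minus shCTRL difference was -0.94 ± 0.15 (log2, SE; limma unadjusted p = 0.00014, adjusted p = 1). In the induced libraries it had 11 and 10.4 TPM in shRCOR2 and 20.5 and 16.7 in shCTRL, a difference of -0.74 (limma adjusted p = 0.013). SNORD38A, a small nucleolar RNA, had 18.0, 19.4, 17.2 and 16.9 TPM in the knockdown lines and 12.7 and 10.6 in shCTRL, a difference of 0.57. MIR22HG, the host transcript of miR-22, had 1.69, 2.83, 2.32 and 1.96 TPM in the knockdown lines and 4.80 and 5.97 in shCTRL, a difference of -1.0. With doxycycline its values were 3.47, 3.84, 1.56 and 2.26 TPM in the knockdown lines and 1.18 and 1.83 in shCTRL, and the shRCOR1 minus shCTRL difference was 0.91 (limma adjusted p = 0.043).

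Other non-coding genes were part of this set. ERICH6-AS1, an antisense RNA, had 5.93, 5.93, 6.37 and 4.17 TPM in the knockdown lines and 1.5 and 2.52 in shCTRL, a difference of 1.14. AL031186.1 had 2.48, 3.37, 3.06 and 3.40 TPM in the knockdown lines and was listed at 0 in both shCTRL libraries. With doxycycline AL031186.1 had 3.70, 3.65, 3.73 and 4.07 TPM in the knockdown lines and 0 and 2.74 in shCTRL. AC044860.1 had 15.1 and 18.4 TPM in the shRCOR2 line and 29.6 and 30.2 in the shCTRL line, a difference of -0.81, and its induced values were 29.5 and 26.6 TPM in shRCOR2 and 30.3 and 33.4 in shCTRL.

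Coding genes of this set included NOMO3, COA8, FECH, CSKMT and CNTRL. NOMO3, a Nodal modulator with near-identical paralogues, had 29.2 and 30.1 TPM in the shRCOR2 line and 18.8 and 18.9 in the shRCOR1 line, a difference of 0.63. In induced libraries the shRCOR2 and shRCOR1 lines overlapped, at 30.9 and 32.9 TPM in shRCOR2 and 32.3 and 31.4 TPM in shRCOR1. FECH, the last enzyme of haem synthesis, had 11.5 and 12.4 TPM in the shRCOR2 line and 6.36 and 6.60 in the shCTRL line, a difference of 0.79, and with doxycycline 7.59 and 10.1 TPM in shRCOR2 and 11.6 and 7.85 TPM in shCTRL. CNTRL, a centrosome protein, had 17.5 and 17.9 TPM in the shRCOR1 line and 23.6 and 27.6 in the shCTRL line, a difference of -0.51. COA8, a cytochrome oxidase assembly factor, had 18.7, 15.6, 19.4 and 16.9 TPM in the knockdown lines and 13.9 and 10.8 in shCTRL. Of 40 pairs of a named gene and a comparison, 5 were called in the same direction in the matching induced comparison and 2 in the opposite one. The induced comparisons called 5.5, 9, 15.1 and 27.7% of all tested genes, so these counts are not a result about the named genes.

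Genes that overlap another gene on the same strand, readthrough genes among them, made up some of the widest differences. Of 46 genes whose untreated difference exceeded 1 log2 unit, 26 (56.5%) overlapped another tested gene on the same strand, against 17.7% of all tested genes. AP002990.1 (chr11:62559603-62591531), which overlaps EEF1G, had the largest value, 3.73 with a 95% half-width of 4.34, and is named after its values were seen. It had 367, 11.3, 288 and 323 TPM in the knockdown lines and 10.7 and 9.00 in shCTRL. EEF1G, an elongation factor subunit, had 2588, 3437, 2570 and 2360 TPM in the knockdown lines and 3378 and 3113 in shCTRL, highest in the 3 libraries in which AP002990.1 was near 10. BLOC1S5-TXNDC5, a readthrough of 2 genes, had 17.1 and 8.88 TPM in the shRCOR2 line and was listed at 0 in both shCTRL libraries. In the shRCOR1 line it had 0.375 and 0 TPM. With doxycycline BLOC1S5-TXNDC5 had 20.9 and 6.01 TPM in shRCOR2, 0 and 2.89 in shRCOR1 and 10.0 and 3.73 in shCTRL. TXNDC5 itself had 66.9 and 75.6 TPM in the shRCOR2 line and 84.6 and 77.8 in the shCTRL line. The sources used here do not give how reads were divided between such genes, so these values are uncertain.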

How the data were processed

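RNA of Kelly derivatives was harvested with a Qiagen RNeasy Plus Mini kit and libraries were made with a directional NEBNext Ultra II kit, per the labels' protocols. Per the submitters' processing notes the tools were Trim Galore 0.6.7, HISAT2 2.2.1 and StringTie 2.1.7, with genome build GRCh38. The sources used here give neither the annotation release nor the strandedness setting nor how multiply mapped reads were treated. The authors deposited TPM, FPKM and coverage per gene for each library, per the file headers. Rows that shared a gene identifier were summed.

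Levels were described on deposited TPM. Differences on log2(TPM + 1) were fitted in R 4.3.3 with limma 3.58.1 and its mean-variance trend, over all 12 libraries as 6 group means, for 16842 genes with at least 1 TPM in at least 2 libraries, with Benjamini-Hochberg adjustment and a threshold of 0.05. The procedure was tested on simulated data in which libraries varied independently. That simulation held no deviation shared by libraries of the same replicate number, so it does not cover this feature of the data. Gene types came from GENCODE 29 by identifier, for 58429 of 60660 identifiers. The 25 gene lists named 475 genes, of which 473 were found.

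Replicate numbers come from the sample titles. Same-numbered libraries deviated together in all 15 pairs of groups (correlations 0.372 to 0.750), so a fit with the replicate number as a block was run beside the unblocked one. Other alternatives changed the unit, the pseudocount, the filter, the scaling, the variance trend and the libraries used. Genes are named if they were among the 30 most abundant nuclear or 5 most abundant mitochondrial genes, on a list, shRNA targets or their paralogue, or, where no gene was called, among the 5 in each direction with the smallest p. Outside this rule are genes of the replicate selection, named after their values were seen, and widely used genes of chromosome 6 picked by hand. Some genes that overlap others and the call of an alternative fit are also outside it. The members and lists were chosen with earlier results of these data known. Some items of the lists are not reported here.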

Additional observations from a re-analysis of the deposited data

How the results depend on the processing

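The count of 0 called genes held in the comparison of both knockdown lines with shCTRL under every alternative run. Without a filter on low values limma called 2 genes between shRCOR1 and shCTRL, 5 between shRCOR2 and shCTRL and 7 between shRCOR2 and shRCOR1. Leaving out 1 library at a time gave 0 to 1 calls for shRCOR1 minus shCTRL and 0 for the other comparisons; the call, AL627171.2, came without shRCOR1 replicate 1. Without shCTRL replicate 1 the genes at an unadjusted p below 0.05 between both knockdown lines and shCTRL numbered 468, against 134 with all libraries. The replicate block changed no call between untreated lines, and raised the genes at an unadjusted p below 0.05 to 453 for both knockdown lines; in induced libraries it raised the calls for both lines to 3852, against 927 without it. With no calls between untreated lines, the count of such calls also called in induced libraries was 0 in every fit, and using only the 6 untreated libraries gives no such value.

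Differences near 0 changed sign, and so did some wider ones when 1 library was left out. For both knockdown lines minus shCTRL, REST was -0.44 with all libraries and 0.11 without shCTRL replicate 2. COL1A1, which was lower in the knockdown lines with all libraries, was 0.33 without that library. For both knockdown lines minus shCTRL, with median-of-ratios scaling RCOR2 was 0.0051 and KDM1A 0.010. For RCOR2 in shRCOR1 minus shCTRL that scaling gave 0.0029, and in shRCOR2 minus shCTRL quantile normalization gave -0.016 and leaving out mitochondrial genes -0.012. With 1 library left out the log2 differences ranged as follows. RCOR1 ran from -0.20 to 0.019 for both lines, from -0.27 to -0.043 for shRCOR1 and from -0.14 to 0.081 for shRCOR2. RCOR2 ran from -0.076 to 0.042 for both lines, from -0.099 to 0.019 for shRCOR1 and from -0.069 to 0.080 for shRCOR2. For both lines RCOR3 ran from -0.18 to 0.26, MYCN from -0.043 to 0.50, CHGA from 0.025 to 0.42, HAND2 from -0.21 to 0.11, TH from -0.17 to 0.55, DBH from -0.031 to 0.12, COL1A1 from -2.58 to 0.33 and REST from -0.99 to 0.11. None of these was called under any alternative, and the cause was not tested. The other 881 values computed for single genes and for the number of detected genes kept their direction and their side of the threshold. Where a line was left with 1 library, that library was assumed to vary like the other groups. The number of genes at the detection limit in all 6 libraries was 14140, and ranged from 12711 at 2 TPM to 15594 at 0.5 TPM, with 12347 at 1 FPKM. TPM carries no read depth, so an absent call is not evidence of equal levels.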
